A study of Triticum turgidum subsp. durum with 32 samples.

Results

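This report describes 6 transcribed loci of tetraploid wheat: both copies of the precursor of the microRNA miR530 (pri-miR530-A and pri-miR530-B), the locus that lies next to each copy, and both copies of TZP, the gene that the study names as a predicted target of miR530. They were chosen with earlier results of these data known, and were found by their names among the 150754 loci of the deposited read-count table. The pri-miR530 copies carry a single assembled transcript, isotig11608, placed on chromosomes 2A and 2B. The neighbours are Traes_2AL_F39B465B7 and Traes_2BL_232B84604, and the TZP copies are Traes_3AL_5006FA990 (TZP-A) and isotig04736 on 3B (TZP-B). All 32 libraries were made from the third leaf, fully extended, of 4-week-old plants of the durum variety Kronos, grown with 16 h of light at 20 °C and 8 h of dark at 18 °C, and harvested in the morning. The phyB-null and phyC-null plants carry loss-of-function mutations in both the A and the B copy of PHYTOCHROME B or of PHYTOCHROME C, and each mutant was compared with a wild-type sister line of its own, here called PHYB wild type and PHYC wild type. The phyB alleles are stop codons from a mutagenized (TILLING) Kronos population, backcrossed to Kronos and then combined, so that other mutations of that population may remain in the lines. Each comparison was grown as 2 experiments, with 4 libraries per genotype in each, which gives 8 groups. The 2 PHYB experiments followed each other in the same growth chamber, the 2 PHYC experiments used separate chambers with different ballasts, and the PHYB and PHYC lines were never grown together.

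Phytochromes are photoreceptors that switch between an inactive and an active form in red and far-red light, and in Arabidopsis phyB in its active form removes bHLH proteins of the PIF family that otherwise promote stem growth under shade. A microRNA is cut from a long capped primary transcript, the pri-miRNA, by a Dicer-like enzyme, and the mature molecule then guides the cleavage of messenger RNAs that pair with it. Poly(A)-selected libraries such as these read the primary transcript and the target messenger RNA, and do not read the mature microRNA. TZP is known in Arabidopsis as a nuclear protein with zinc knuckles and a PLUS3 domain, the domain it shares with the RTF1 subunit of the PAF1 complex, and as a partner of phytochromes that affects growth and flowering.

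The libraries held between 15961572 and 47695062 counted reads, with a median of 25979236. Normalized counts below are reads divided by a size factor computed over all 32 libraries. The phyB mutations are premature stop codons, so the labels do not require a lower transcript level of the mutated gene. The phytochrome B locus Traes_4AS_1F3163292 on 4A lay between 147 and 193 normalized counts in the 8 phyB-null libraries and between 359 and 440 in the 8 PHYB wild-type libraries. A chlorophyll a-b binding protein locus, td-k61_contig_63190, had reads in all 32 libraries, with a median of 34.6 normalized counts. Its level was not the same in all groups. In phyB-null it was higher by log2 1.63 ± 0.22 in experiment 1 (adjusted P = 3.74e-04) and 0.83 ± 0.25 in experiment 2 (adjusted P = 0.0364, edgeR). Replicates 3 and 4 of phyB-null in experiment 2 resembled each other more than any other 2 libraries of a group (a chi-square of 1.42 per degree of freedom over 56617 loci), yet differed beyond counting noise. Whether they came from the same plant or RNA is not given in the sources used here, and tests that count them as 2 libraries take them as independent. With these summed into 1 library, an alternative chosen after seeing the data, all 6 loci were still called in that experiment, with log2 fold changes of 9.31 for pri-miR530-A and -1.54 for TZP-B.

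In the draft A and B genome assembly of the variety Chinese Spring that the authors used (IWGSC, v2.2), pri-miR530-A spans positions 45376799 to 45378090 of chromosome 2A and pri-miR530-B spans 217777257 to 217778564 of chromosome 2B, 1292 and 1308 bases. Traes_2AL_F39B465B7 lies at 45380137 to 45382157 on 2A, 2046 bases after the end of pri-miR530-A. Traes_2BL_232B84604 lies at 217780546 to 217785144 on 2B, 1981 bases after the end of pri-miR530-B. The study's protein search gave ribonuclease H2 subunit B as the closest annotation of both neighbours. This protein is a non-catalytic subunit of the enzyme that removes RNA from RNA:DNA hybrids. TZP-A spans 129895633 to 129900458 of 3A and TZP-B spans 538804935 to 538810919 of 3B, and both were annotated as RTF1-like proteins. The deposited annotation gives every locus the same strand and no exons, so strand, introns and untranslated regions cannot be stated. Only reads that mapped to a single place were counted, so the reads on an A or a B copy are those that tell the copies apart.

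Both pri-miR530 copies were nearly silent in the PHYB wild type and among the more abundant transcripts of the phyB-null leaf. In experiment 1, pri-miR530-A had 15, 20, 17 and 10 reads in the 4 wild-type libraries and 7782, 7622, 14950 and 9090 reads in the 4 phyB-null libraries. In experiment 2 it had 9, 12, 11 and 16 reads in the wild type and 7016, 9443, 8959 and 8250 in phyB-null. All mutant libraries were far above all wild-type libraries, and the groups did not approach each other in either experiment. The share of all loci that separate in this way was not computed. Normalized for depth, the level rose from 17.3 ± 4.62 to 6728 ± 70.6 (SD, n = 4) in experiment 1 and from 9.80 ± 1.16 to 6225 ± 497 in experiment 2. These are log2 fold changes of 8.58 ± 0.19 and 9.29 ± 0.16 (SE), with adjusted P = 2.87e-10 and 4.69e-10 (edgeR quasi-likelihood test, Benjamini-Hochberg over all loci tested). By mean normalized count in phyB-null it ranked 342 of 150754 loci in experiment 1 and 370 in experiment 2, and pri-miR530-B ranked 925 and 938.

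The B copy behaved alike at a lower level. pri-miR530-B had 12, 5, 15 and 12 reads in the wild type of experiment 1 against 3360, 3640, 6777 and 3988 in phyB-null. In experiment 2 the wild type had 11, 9, 7 and 11 reads and phyB-null had 3353, 4403, 4290 and 3831. The deepest library, replicate 3 of phyB-null in experiment 1, had the most reads of both copies, and after normalization it no longer stood out from its group. The normalized level rose from 12.2 ± 4.37 to 3029 ± 117 (n = 4) in experiment 1 and from 7.88 ± 1.74 to 2936 ± 209 in experiment 2. The log2 fold changes were 7.93 ± 0.21 and 8.53 ± 0.16, with adjusted P = 8.94e-10 and 6.17e-10 (edgeR). Per kilobase of locus, phyB-null of experiment 1 held 5208 normalized counts of the A copy and 2316 of the B copy.

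The loci next to pri-miR530, the ribonuclease H2 subunit B homologues, rose with it. Traes_2AL_F39B465B7 had 4, 3, 5 and 5 reads in the wild type of experiment 1 and 2280, 2721, 6120 and 3181 in phyB-null. In experiment 2 these were 5, 4, 7 and 3 reads against 2628, 3931, 3518 and 3165. Every mutant library was far above every wild-type library, a separation whose share over all loci was not computed. The log2 fold changes were 8.92 ± 0.21 in experiment 1 (adjusted P = 2.87e-10) and 9.24 ± 0.24 in experiment 2 (adjusted P = 7.67e-09, edgeR).

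On 2B, Traes_2BL_232B84604 had 5, 9, 19 and 6 reads in the wild type of experiment 1 and 3589, 4091, 7381 and 3349 in phyB-null. Experiment 2 gave 5, 12, 20 and 13 reads against 4486, 4954, 4792 and 4258. The wild-type libraries spread more here than for the other loci, with replicate 3 the highest of its group in both experiments. They stayed far below the mutants, with the share of such a separation over all loci not computed. The log2 fold changes were 8.17 ± 0.26 (adjusted P = 3.19e-09) and 8.36 ± 0.28 (adjusted P = 3.88e-08, edgeR). Per kilobase of locus the 2B neighbour was the lowest of these 4 loci in phyB-null, at 680 normalized counts in experiment 1. The 2A neighbour held 1173. These spans may include introns, which the annotation does not mark, so this order does not rank the transcripts themselves. A bulk leaf library cannot tell a higher transcript level per cell from a larger number of cells that hold the transcript, and this holds for every level given here.

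All 4 of these loci and both TZP copies were called in both PHYB experiments at an adjusted P of 0.01 or less, the first 4 higher and TZP lower. These loci were chosen with the phyB-null results of these same libraries known, so their calls and ranks are no independent evidence. Over all loci tested, 3.98% were called higher and 5.43% lower in experiment 1, 5.83% higher and 5.72% lower in experiment 2, and 2.13% higher and 2.89% lower in both experiments. By the P of the quasi-likelihood test the 4 raised loci ranked 2, 7, 5 and 15 of 81246 loci in experiment 1 (pri-miR530-A, pri-miR530-B, the 2A neighbour and the 2B neighbour, in this order), and 1, 3, 6 and 20 of 82640 in experiment 2. By fold change among the loci called higher they ranked 6, 16, 3 and 9 of 3236, and 4, 10, 5 and 12 of 4819. Scaling by library totals alone moved the median log2 fold change of all loci from 0.03 to 0.35 in experiment 1 and from 0.00164 to 0.25 in experiment 2, and the share of higher among all called loci from 42.3% to 75.4% and from 50.5% to 75.7%. The 6 loci kept their direction and their call under that scaling.

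**Figure D1:**
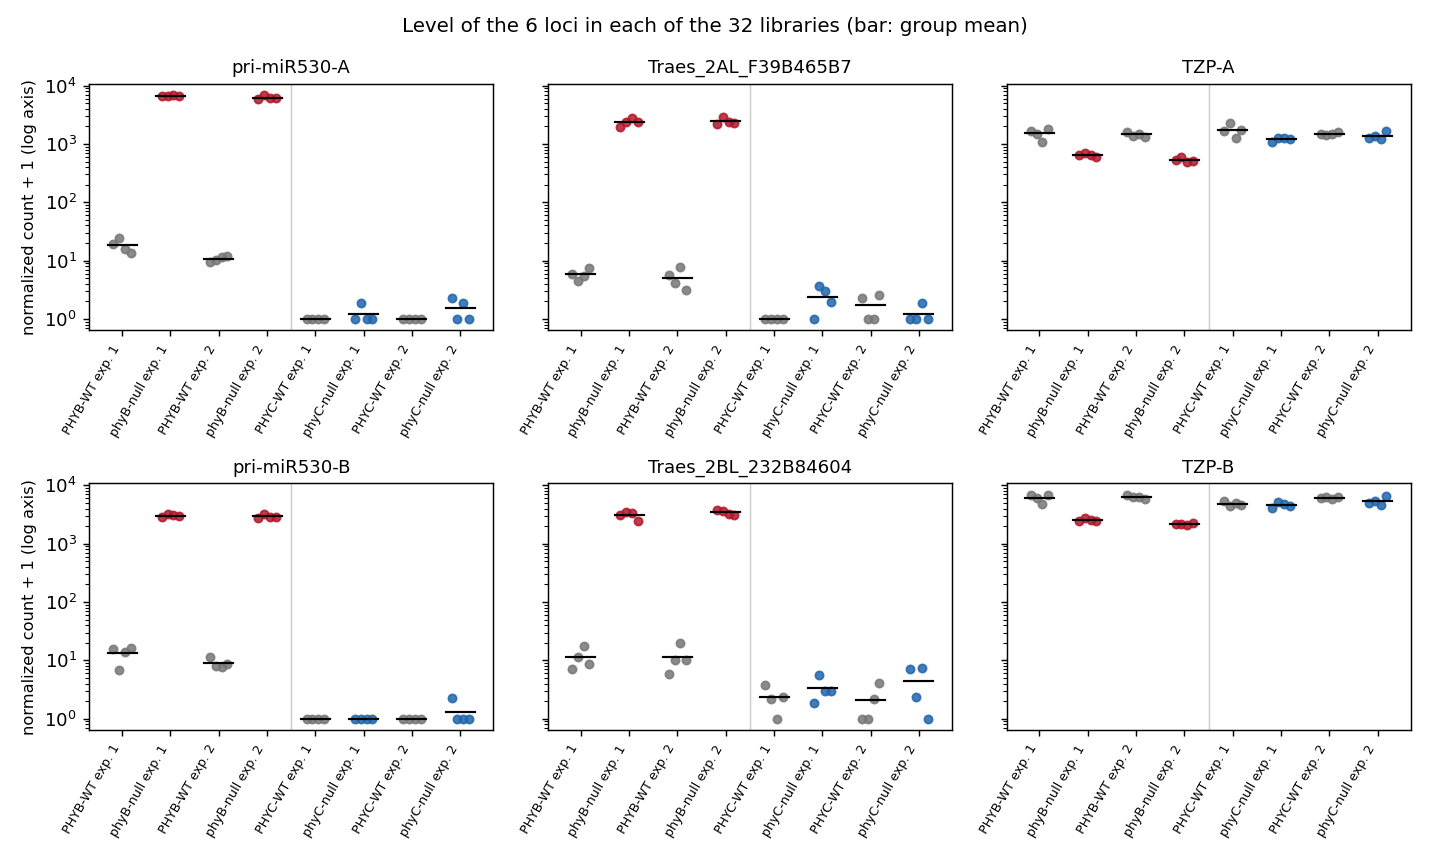
Normalized count plus 1 on a log axis for each of the 6 loci (panels) in each of the 32 libraries (points, 4 per group), with a bar at the group mean. Red marks phyB-null, blue phyC-null and grey the wild types. The 4 loci in the left and middle panels stand between 1969 and 6950 normalized counts in every phyB-null library and at or below 23.3 in every other library, while TZP in the right panels is lowest in phyB-null.

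The levels outside phyB-null differed between the lines. Pooled over the 8 libraries of each genotype, pri-miR530-A had 110 reads in the PHYB wild type, 0 in the PHYC wild type and 3 reads in phyC-null, and pri-miR530-B had 82, 0 and 1. The floor of 3 counts over the 8 PHYC wild-type libraries corresponds to 0.0157 CPM (reads scaled to a common library total), so the PHYB wild type, at 0.480 and 0.358 CPM, was at least 30.5-fold higher for the A copy and at least 22.7-fold higher for the B copy. These limits cover counting error only. Traes_2AL_F39B465B7 had 36 reads in the PHYB wild type and 2 in the PHYC wild type, a ratio of 15.0 (95% counting interval 3.85 to 128). For Traes_2BL_232B84604 the counts were 89 and 7, a ratio of 10.6 (4.93 to 27.1). No PHYC wild-type library reached 3 reads for any of these 4 loci, which entered the model of all 32 libraries through groups where they were higher, so no call between the wild types is given for them. Neither TZP copy was called in that contrast (edgeR), where 17.9% of all loci tested were, and line and time of growth cannot be told apart in it.

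Expressed as a percentage of the phyB-null mean, the PHYB wild-type mean was 0.257% in experiment 1 and 0.157% in experiment 2 for pri-miR530-A, and 0.404% and 0.269% for pri-miR530-B. It was 0.202% and 0.169% for the 2A neighbour, and 0.327% and 0.304% for the 2B neighbour. The libraries were barcoded and sequenced together in lanes. Whether the few wild-type reads came from the wild-type leaves or from reads assigned to the wrong barcode was not tested.

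In phyC-null the pri-miR530 loci were at or below the floor of 3 counts. No library of either PHYC line held more than 1 read of pri-miR530-A or of pri-miR530-B, and neither copy reached the filter of 3 reads in 2 libraries, so neither was tested in the PHYC experiments. Traes_2AL_F39B465B7 had at most 3 reads in a PHYC library and was not tested either. Traes_2BL_232B84604 had, summed over 4 libraries each of experiment 1, 4 wild-type reads against 10 reads from phyC-null, where it failed the filter, and 3 and 13 in experiment 2. In experiment 2 it passed the filter through 2 phyC-null libraries and 0 wild-type libraries. Its log2 fold change there, 1.89 ± 0.98, is therefore given without a call. Pooled over the libraries of each mutant, phyB-null held 73112 reads of pri-miR530-A and phyC-null held 3. The ratio was 18770 after division by library totals (95% counting interval 6422 to 91017). This interval leaves out variation between plants and experiments, and mutant, line and time of growth cannot be told apart in the ratio.

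TZP moved the other way in phyB-null. In experiment 1, TZP-B had 6946, 6151, 4798 and 6837 normalized counts in the 4 wild-type libraries and 2442, 2734, 2517 and 2467 in phyB-null. In experiment 2 these were 6889, 6287, 6275 and 5950 against 2190, 2186, 2124 and 2231. The groups did not overlap, a separation whose share over all loci was not computed, and the mutant libraries lay close together in both experiments. The log2 fold change was -1.30 ± 0.14 (adjusted P = 7.50e-05) in experiment 1 and -1.54 ± 0.10 (adjusted P = 4.57e-06, edgeR) in experiment 2, which is 2.46-fold and 2.91-fold lower.

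TZP-A had 1674, 1491, 1085 and 1820 normalized counts in the wild type of experiment 1 and 655, 707, 633 and 603 in phyB-null. Experiment 2 gave 1624, 1392, 1503 and 1339 against 537, 587, 494 and 517. Again the groups did not overlap, with the share over all loci not computed, and replicate 3 was the lowest wild-type library of experiment 1 for both copies. TZP-A was 2.36-fold lower in experiment 1 (log2 -1.24 ± 0.15, adjusted P = 2.16e-04) and 2.74-fold lower in experiment 2 (log2 -1.46 ± 0.11, adjusted P = 1.05e-05, edgeR). Per kilobase of locus the PHYB wild type of experiment 1 held 314 normalized counts of TZP-A and 1033 of TZP-B.

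Neither TZP copy was called in phyC-null. TZP-A had 1665, 2327, 1259 and 1710 normalized counts in the PHYC wild type of experiment 1 and 1097, 1285, 1245 and 1195 in phyC-null, so the groups overlapped through replicate 3 of the wild type. Its log2 fold change was -0.53 ± 0.17 (95% interval -0.86 to -0.19, adjusted P = 0.0997), and -0.13 ± 0.11 in experiment 2 (-0.34 to 0.09, adjusted P = 0.644, edgeR). For TZP-B the values were -0.07 ± 0.13 (-0.32 to 0.18, adjusted P = 0.811) and -0.20 ± 0.12 (-0.43 to 0.03, adjusted P = 0.467). Of all loci, 1.64% were called in PHYC experiment 1 and 1.04% in experiment 2, against 0 of 2 and 0 of 3 of the loci described here that were tested. Those of experiment 2 include Traes_2BL_232B84604, which entered through phyC-null alone. At an unadjusted P under 0.05 there was 1, TZP-A in experiment 1, and 0 in experiment 2, and DESeq2 called 0 in both.

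**Figure D2:**
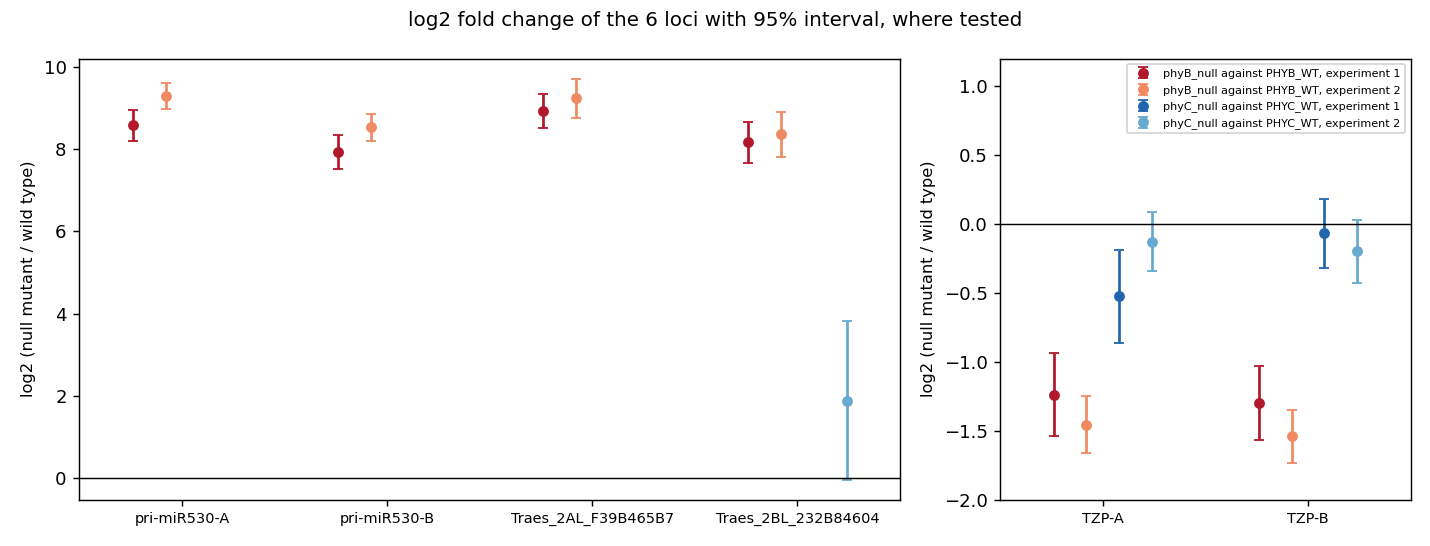
log2 fold change of null mutant over wild type with its 95% interval for the 4 comparisons, for the pri-miR530 loci and their neighbours (left) and for TZP (right, on a narrower axis). The 8 phyB-null values on the left lie between 7.93 and 9.29, both TZP copies lie between -1.54 and -1.24 in phyB-null, and the interval of TZP-A in PHYC experiment 1 lies below 0. Loci under the read filter have no point, and Traes_2BL_232B84604 passed it in PHYC experiment 2 through phyC-null alone.

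Ordered by group mean, TZP-B was lowest in phyB-null of experiment 2 (2183 ± 44.3), followed by phyB-null of experiment 1 (2540 ± 133). These 2 groups overlapped neither each other nor the next. Experiment 2 was not tested against experiment 1 within phyB-null, and the share of all loci with such a separation was not computed. The other 6 groups ran from 4613 ± 446 in phyC-null of experiment 1 to 6350 ± 392 in the PHYB wild type of experiment 2, and each overlapped its neighbour in the order. TZP-A had the same 2 groups at the bottom, at 534 ± 39.3 and 649 ± 44.2 without overlap, and 6 overlapping groups above, from 1206 ± 81.5 to 1740 ± 441. The highest of these, the PHYC wild type of experiment 1, also had the widest spread.

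The phyB-null and phyC-null effects were set against each other in a model of all 32 libraries. The TZP-B effect in phyB-null was lower than that in phyC-null by a log2 difference of -1.28 ± 0.11 (adjusted P = 6.37e-10), and that of TZP-A by -1.01 ± 0.14 (adjusted P = 6.91e-06, edgeR). The difference for Traes_2BL_232B84604 was 6.90 ± 1.11 in the upward direction. No PHYC wild-type library reached 3 reads for this locus, so the difference is given without a call. For the other 3 loci, each of which stood at 0 reads in at least 1 PHYC group, the quasi-likelihood contrast gave no usable standard error. They passed the read filter through the PHYB line alone, so no call of theirs is given. Across the table, 5.95% of loci were called in this contrast.

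The experiments were also compared with each other. None of the 6 loci was called for a PHYB effect that differed between experiments, with 1 at an unadjusted P under 0.05 (pri-miR530-A, a log2 effect larger by 0.70 ± 0.22 in experiment 2, adjusted P = 0.316) and 0 by DESeq2. Only 0.00458% of all loci were called there. In the PHYB wild type itself pri-miR530-A was lower in experiment 2 by a log2 difference of -0.82 ± 0.19, which did not pass after adjustment (adjusted P = 0.0455, edgeR, where 2.56% of all loci passed). For this contrast 0 of 6 were called, 2 had an unadjusted P under 0.05 and DESeq2 called 0. In the PHYC line 0 of the 3 tested loci differed between experiments in their effect (0.0172% of all loci called, 0 unadjusted, 0 by DESeq2). Of these 3, Traes_2BL_232B84604 passed the filter through phyC-null alone. In the PHYC wild type 0 of 3 were called, where 2.03% of all loci were, with TZP-B at an unadjusted P under 0.05 (log2 0.35 ± 0.12 higher in experiment 2, adjusted P = 0.0726) and 0 by DESeq2.

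The rise around pri-miR530 did not extend to every locus nearby. Within 50 kb of pri-miR530-A the table has 2 further loci beside the neighbour, td-k51_contig_68820 upstream on the map and td-k21_contig_61872 at 40771 bases past its end. The first had no reads in any group, and the second averaged between 0.114 and 3.47 normalized counts over the 8 groups. Within 50 kb of pri-miR530-B, the locus after the neighbour is td-k41_contig_43863, 8601 bases past the end of pri-miR530-B, which the study annotated as an F-box, FBD and LRR repeat protein. It rose from 2.33 to 996 normalized counts in experiment 1 (log2 8.72 ± 0.35) and from 2.89 to 1189 in experiment 2 (log2 8.64 ± 0.24). The loci at both ends of that window, contig45769 and Traes_2BL_3E613DE21, averaged under 1 normalized count in every group.

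The same assembled transcript, td-k41_contig_43863, was also placed on 2A, away from pri-miR530-A, at 29589204 to 29592617. There it lies 172 bases before Traes_2AL_9FD39E3F9, which the study also annotated as ribonuclease H2 subunit B, and isotig29116 follows 278 bases further on. The 2A copy of td-k41_contig_43863 went from 17.1 to 1158 normalized counts in experiment 1 (log2 6.04 ± 0.18) and from 16.6 to 1470 in experiment 2 (log2 6.43 ± 0.22). Traes_2AL_9FD39E3F9 went from 3.71 to 921 (log2 7.94 ± 0.22) and from 4.08 to 1129 (log2 8.07 ± 0.19). Both were called higher in both PHYB experiments, as was a locus farther off in that window, Traes_2AL_0EA4C4F0A, with log2 fold changes of 0.55 ± 0.10 and 0.65 ± 0.14 (2.13% of all loci were called higher in both). isotig29116 had 0 or 1 read in each wild-type library and between 325 and 818 in each phyB-null library. It passed the read filter through phyB-null alone, so its call is not counted. No locus of these 3 windows was called in phyC-null, where 1.64% and 1.04% of all loci were called in experiments 1 and 2. However, pri-miR530-A, pri-miR530-B, Traes_2AL_F39B465B7, td-k41_contig_43863 on 2B, Traes_2AL_9FD39E3F9 and isotig29116 missed the read filter in both PHYC experiments and could not be called. No other locus lies within 50 kb of TZP-A or of TZP-B.

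**Figure D3:**
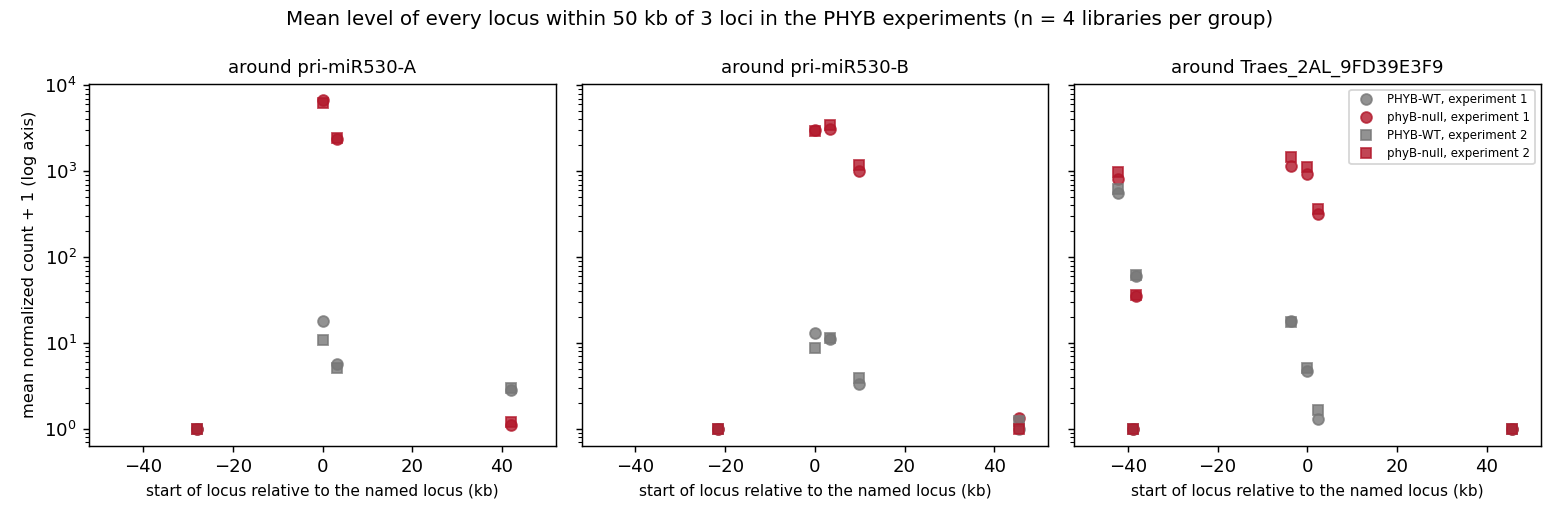
Mean normalized count plus 1 on a log axis (n = 4 libraries per group) of every locus within 50 kb of pri-miR530-A, pri-miR530-B and Traes_2AL_9FD39E3F9, by the start of each locus relative to the start of the named one in kb. Red is phyB-null and grey the PHYB wild type, circles experiment 1 and squares experiment 2. The loci with a log2 rise above 6 in both experiments sit together near the centre of each panel. Farther out, Traes_2AL_0EA4C4F0A in the third panel rose by log2 0.55 and 0.65.

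Reads of the A copy made up a steady share of pri-miR530 in the mutant. In phyB-null it was 69.0 ± 0.956% (SD, n = 4) of A plus B reads in experiment 1 and 67.9 ± 0.350% in experiment 2. In the PHYB wild type, where all 4 libraries together held 106 and 86 such reads, it was 58.5 ± 14.9% and 55.6 ± 7.27%. The pooled wild-type share of experiment 1, 58.5%, had an exact 95% binomial interval of 48.5% to 68.0%, and that of experiment 2, 55.8%, an interval of 44.7% to 66.5%. The difference between mutant and wild type was 10.4 percentage points in experiment 1 (P = 0.143, adjusted 0.206) and 12.3 in experiment 2 (P = 0.0286, adjusted 0.171), in a two-sided exact permutation test adjusted over 6 tests, where 0.0286 is the smallest P that 4 against 4 libraries allow. With replicates 3 and 4 of phyB-null summed, the difference in experiment 2 was 12.3 percentage points with an exact permutation P of 0.0571 before adjustment (3 against 4 libraries). Without replicate 4 the difference in experiment 1 was 5.88 percentage points and without replicate 2 it was 18.0.

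For TZP the A copy gave a smaller share. In experiment 1 it was 19.6 ± 1.07% for the PHYB wild type against 20.4 ± 0.647% for phyB-null, and 18.7 ± 0.562% and 19.6 ± 1.09% in experiment 2. The PHYC wild type of experiment 1 stood apart with 23.9%, 34.8%, 20.0% and 26.8% in its 4 libraries, against 20.8 ± 0.525% in phyC-null, while experiment 2 gave 19.5 ± 0.609% and 20.3 ± 0.393%. Replicate 2 of that wild type had 1953 reads of TZP-A and 3662 of TZP-B. None of the 4 TZP comparisons passed (exact permutation P between 0.0857 and 0.229, adjusted between 0.206 and 0.229).

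**Figure D4:**
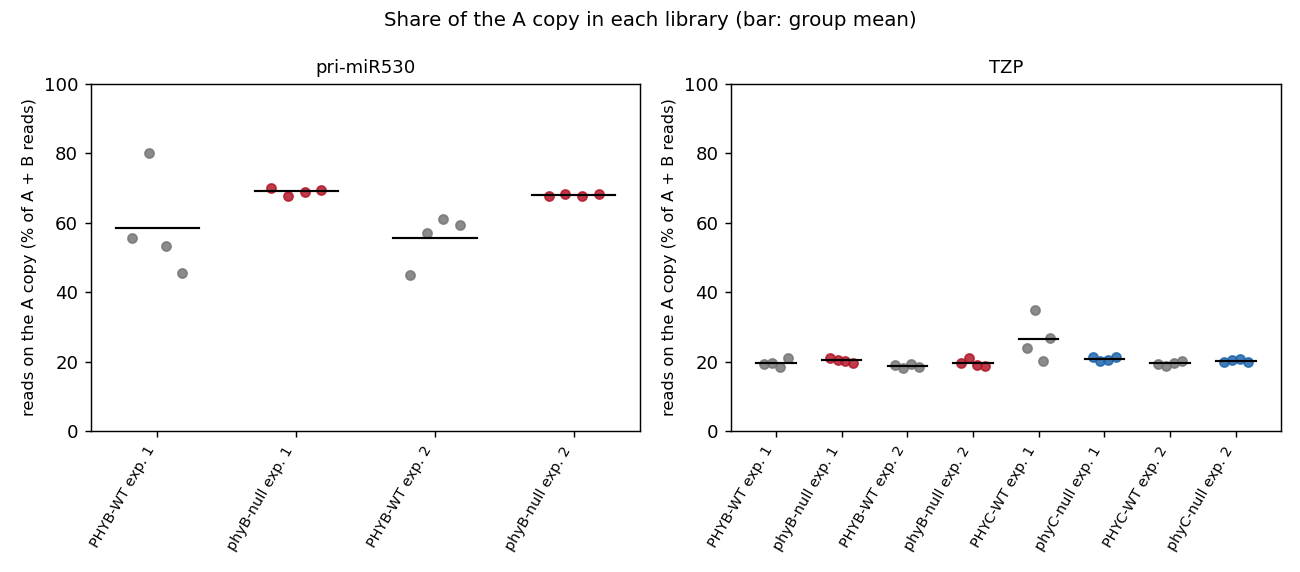
Reads on the A copy as a percentage of reads on the A and B copies for pri-miR530 (left, PHYB experiments) and TZP (right, all experiments), by library (points) with a bar at the group mean. The phyB-null libraries lie between 67.6% and 69.8% for pri-miR530 and the wild-type libraries between 45.0% and 80.0%, and the TZP share lies between 18.1% and 34.8%.

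Within the 8 phyB-null libraries, 4 relations between loci were computed on log2 normalized counts after removing each experiment's mean, with exact permutation P within experiments. pri-miR530-A and pri-miR530-B had Pearson's r = 0.820 (P = 0.109, adjusted 0.192) and Spearman's rho = 0.619 (P = 0.139, adjusted 0.278). The value of r was -0.458 in experiment 1 and 0.982 in experiment 2, and 0.0762 without the 2 libraries farthest from the median, so the relation rests on those libraries. pri-miR530-A and Traes_2AL_F39B465B7 had r = 0.684 (exact permutation P = 0.0260, adjusted 0.104) and rho = 0.738 (P = 0.0538, adjusted 0.215), and r = 0.334 without the 2 farthest libraries. For pri-miR530-A and TZP-B, r was -0.0884 (P = 0.714, adjusted 0.714) and rho -0.286 (P = 0.373, adjusted 0.398), with -0.363 without the 2 farthest libraries. TZP-A and TZP-B gave r = 0.606 (P = 0.144, adjusted 0.192) and rho = 0.333 (P = 0.398, adjusted 0.398), with 0.221 without those farthest from the median. No relation passed after adjustment over the 4, also with replicates 3 and 4 of experiment 2 summed (adjusted exact permutation P from 0.194 to 0.354), and the levels within phyB-null varied little (an SD of 0.0738 log2 units for pri-miR530-A and 0.0521 for TZP-B).

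Beside pri-miR530 the study names 4 pri-miRNA loci, and the table holds 1 further placement of the pri-miR5200-B transcript, td-k21_contig_55327, on a 7AS scaffold. That placement, at 2094 to 3012, shares its scaffold with pri-miR5200-A at 3318 to 5569. Whether they are parts of 1 locus was not tested. Of these 5 loci, 1 was called higher in both PHYB experiments (2.13% of all loci). This was pri-miR393b-A, whose mature form targets auxin receptor transcripts in Arabidopsis, with 7.90 against 42.9 normalized counts in experiment 1 (log2 2.39 ± 0.34) and 10.8 against 33.8 in experiment 2 (log2 1.63 ± 0.31). pri-miR156g-A, of the family that targets SPL transcription factors, had log2 fold changes of 2.04 ± 0.19 (adjusted P = 2.55e-05) and 1.40 ± 0.33 (adjusted P = 0.0115, edgeR), so it was called in experiment 1 only. pri-miR5200-A, pri-miR5200-B and the 7AS placement, of a microRNA that acts on FT in Brachypodium, were called higher in both phyC-null experiments, as were 0.245% of all loci. None of them was called in both PHYB experiments, and the 7AS placement was called lower in experiment 1 (log2 -2.04 ± 0.42). pri-miR5200-A went from 84.8 to 1079 normalized counts in PHYC experiment 1 and from 89.1 to 1236 in experiment 2. In phyB-null pri-miR5200-A was lower without a call, by log2 -1.86 ± 0.47 (adjusted P = 0.0170) and -0.84 ± 0.21 (adjusted P = 0.0150, edgeR). The 5 loci thus went in both directions. Their median log2 fold change in phyB-null, which is the value of pri-miR5200-B, was 0.26 and 0.57, beside 0.03 and 0.00164 over all loci.

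All 3 RTF1-like loci on short 3AL scaffolds were called lower in both PHYB experiments (2.89% of all loci) and in neither PHYC experiment. Traes_3AL_94C7FF862 went from 147 to 32.9 normalized counts in experiment 1 (log2 -2.16 ± 0.16), Traes_3AL_3547EBD0A from 450.0 to 146 (log2 -1.64 ± 0.12) and Traes_3AL_1323B5BEF from 441 to 147 (log2 -1.60 ± 0.15). They are 256, 567 and 409 bases long, and whether they belong to the TZP-A gene cannot be stated from the files.

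The 11 light and clock loci taken from the study's tables give the scale of the phyB-null response in the same libraries. Of these, 6 were called higher and 4 lower in both PHYB experiments, against 2.13% and 2.89% of all loci. In both PHYC experiments 3 were called lower, against 0.227% of all loci. The study chose this list on these samples, so its counts are no independent evidence. PIF-B3, of the family of bHLH proteins that phytochromes act on, rose by a log2 fold change of 6.17 ± 0.24 in experiment 1 and 6.63 ± 0.24 in experiment 2. ATHB2-B, the HD-Zip gene known from shade responses in Arabidopsis, rose by 6.40 ± 0.29 and 6.12 ± 0.34. PPD-B1, the photoperiod gene that promotes wheat flowering in long days, fell with log2 fold changes of -6.94 ± 0.16 and -6.88 ± 0.23, and in phyC-null with -4.62 and -5.11. None of the 11 matched the log2 fold changes of the 4 raised loci around pri-miR530, of which the lowest was 7.93.

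Likeness of pattern was measured as the root mean square difference between the 8 group means of log2(normalized count + 1), each profile centred on its own mean, over the 90331 loci with 3 reads in 2 libraries. The loci most like pri-miR530-A were pri-miR530-B (0.42), Traes_2AL_F39B465B7 (0.93), Traes_2BL_232B84604 (0.96), Traes_2AL_9FD39E3F9 (1.30) and td-k25_contig_26905 (1.47). The first 3 are members of the set described here, which was chosen with the phyB-null results known. The 5 most like TZP-B were Traes_3AL_0413C71DA (0.0907), contig83031 (0.0909), Traes_4AS_97D5BBDE7 (0.106), Traes_6BS_C44E33CC9 (0.109) and td-k35_contig_19236 (0.111). All 5 were called lower in both PHYB experiments, as were 2.89% of all loci. They were picked for following TZP-B in these same libraries, so their calls are no independent evidence. TZP-A came 41st, with 0.176. These distances describe 8 groups that share their libraries between loci and carry no test.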

How the data were processed

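RNA-seq libraries (TruSeq v2, single-end) of 32 leaf samples were analysed. Per the study's methods, the authors trimmed reads with Scythe and Sickle, mapped them with GSNAP to the A and B chromosome arms of the IWGSC draft wheat genome and kept reads that mapped to a single transcribed locus. The deposited values are raw read counts per locus, not normalized, counted with HTSeq per the labels. The locus positions come from the deposited annotation. The authors' fold changes and P values were not used.

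Within each experiment, loci that reached 3 reads in 2 or more of the 8 libraries were fitted with edgeR 4.0.16 (RLE factors, quasi-likelihood test, null mutant against wild type), with Benjamini-Hochberg adjustment over all loci and a threshold of 0.01. Fitted standard errors are the log2 fold change over the root of F. Differences between mutants, lines and experiments came from models of 32 or 16 libraries. Levels used RLE factors over all 32 libraries, and logs a pseudocount of 1. Shares and relations used exact permutation tests with a threshold of 0.05. The fits were tested on simulated data. Depth was 15961572 to 47695062 reads per library. Intervals and floors (3 counts) cover counting error only.

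The labels call replicates separate samples, and the study calls them biological. Same-numbered mutant and wild-type libraries did not deviate together (correlations from -0.176 to 0.0712, 0 of 16 above 0.1), so numbers were not used as pairs. Alternatives were TMM, upper quartile and total scaling, other filters, DESeq2 1.42.0, edgeR's exact test, a threshold of 0.05, a 2-fold minimum, a replicate block, 1 fit per line, each replicate left out and 2 alike libraries summed, the last chosen after seeing the data. The named loci are the 6 loci, all loci within 50 kb of them and of Traes_2AL_9FD39E3F9, lists from the study's tables, and the 5 loci most like pri-miR530-A and TZP-B. The members and lists were chosen with earlier results of these data known. The phytochrome B and chlorophyll a-b binding loci were picked from the study's annotation afterwards as checks. Sequences are not analysed here.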

Additional observations from a re-analysis of the deposited data

Results flagged for a closer look

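Of 28 combinations of locus and group with at least 10 reads on average, 1 held a library that lay apart from the other 3 by Dixon's criterion, which chance gives in about 1 of 20 groups. This was TZP-A in the PHYC wild type of experiment 2, where replicate 4 had 1599 normalized counts and the other 3 had 1451, 1433 and 1455. Replicate 4 was also the shallowest library of that group, with 18898968 reads, and the part of depth in this value was not tested.

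The effects of the 2 mutants differed by test for both TZP copies, in a contrast where 5.95% of all loci were called. The phyB-null effect minus the phyC-null effect was a log2 difference of -1.01 for TZP-A and -1.28 for TZP-B. For Traes_2BL_232B84604 it was 6.90, given without a call, since no PHYC wild-type library reached 3 reads. For both TZP copies, all 8 phyB-null libraries lay below the lowest of the 8 PHYB wild-type libraries. The share of all loci that separate in this way was not computed, and 2.89% were called lower in both PHYB experiments.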

How the results depend on the processing

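All 6 loci were called with the same direction in both PHYB experiments under each of the 19 alternatives of experiment 1 and the 20 of experiment 2. In the PHYC experiments 0 were called under any alternative. There the main filter let only 2 loci be tested in experiment 1 and 3 in experiment 2, and 1.64% and 1.04% of all loci were called. Over these alternatives the log2 fold change ranged from 8.47 to 8.90 and from 9.23 to 9.54 for pri-miR530-A, and from -1.40 to -0.97 and from -1.59 to -1.28 for TZP-B. Of 326 alternative log2 fold changes of single loci, 325 kept direction and call. The exception was TZP-B in PHYC experiment 1 under library totals alone, at 0.29 instead of -0.07, where that scaling moved the median of all loci to 0.36. DESeq2 called 6 loci for the difference between the mutants' effects, against 3 by edgeR (5.95% of all loci). The 3 further loci passed the read filter through the PHYB line alone. Traes_2BL_232B84604, called by both, had no PHYC wild-type library with 3 reads, so only the TZP calls are read here. Under library totals alone, the relation of pri-miR530-A with pri-miR530-B within phyB-null had r = 0.926 (exact permutation, adjusted P = 0.0139) and that with TZP-B had r = 0.608 (exact permutation, adjusted P = 0.229), and depth is then part of both values compared. The replicate block changed no call of a locus. Depth limits the PHYC lines, where no library held more than 1 read of either pri-miR530 copy, and the wild-type share of the A copy, which rests on 106 and 86 reads.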

Other observations

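Across the table, 2 loci averaged at least 1000 normalized counts in both phyB-null groups and at most 1 in each of the 4 PHYC groups, and these were pri-miR530-A and pri-miR530-B. Other loci missed these cut-offs narrowly. Traes_2AL_F39B465B7 (2371 and 2445 in phyB-null) averaged 1.42 in phyC-null of experiment 1. td-k25_contig_26905 (1437 and 1214) averaged 1.87 in phyC-null of experiment 2. Traes_2AL_9FD39E3F9 averaged at most 0.903 in the PHYC groups, and 921 in phyB-null of experiment 1. For the loci raised beside pri-miR530 and in the second group on 2A, the wild-type mean as a percentage of the phyB-null mean varied. It was 0.234% and 0.243% in experiments 1 and 2 for td-k41_contig_43863 on 2B, next to pri-miR530-B. Around Traes_2AL_9FD39E3F9, away from pri-miR530-A, it was 0.403% and 0.361% for that locus, 0.0965% and 0.184% for isotig29116, 1.48% and 1.13% for the 2A placement of td-k41_contig_43863, and 67.6% and 63.7% for Traes_2AL_0EA4C4F0A. The 2A placement of td-k41_contig_43863 averaged between 11.9 and 21.7 normalized counts in the 4 PHYC groups.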
